A study of Mus musculus with 2 samples.

Results

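Kinesins are the motor proteins that walk along microtubules, and 44 of the 32285 genes measured in 2 coronal sections of mouse brain belonged to the set described here. The set was made of every gene whose symbol was Kif followed by a number and optional letters, and of the kinesin light chains Klc1 to Klc4. The rule read symbols and no measured value. It also caught 2 genes that encode no motor: Kif1bp, now known as Kifbp, encodes a protein that binds kinesin motor domains, and Kif16bos is annotated as an antisense RNA beside Kif16b. Of the 44 genes 22 had at least 200 molecules in each section and were compared between places, and the other 22 were too rare for that and are given by their counts.

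Neurons depend on kinesins because most of their proteins are made in the cell body and must be carried along axons and dendrites. Most kinesins move toward the plus end of the microtubule, which in axons points away from the cell body, while dynein moves the other way. Kinesin-1 is built from heavy chains (Kif5a, Kif5b, Kif5c) that hold the motor and light chains (Klc) that bind cargo. Kinesin-2 (Kif3 and Kif17) and kinesin-3 (Kif1 and Kif13) carry vesicles and receptors, and other families shape microtubules, divide chromosomes or serve cilia.

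The sections came from ArcCreERT2::eYFPflx mice, a line on a C57BL/6 background in which the Arc promoter drives an inducible Cre so that cells active at a chosen time can be marked with a yellow fluorescent protein. Both animals were adult males a few months old. The animal of the group labelled trained had learned active place avoidance, in which a mouse on a turning arena keeps away from a sector that gives a mild shock, and the animal of the group labelled untrained had been in the same arena without shock. Brains were frozen after a retention test and cut at the dorsal hippocampus. Gene expression was read with Visium, a slide of barcoded spots that captures polyadenylated RNA from the tissue above, and 1 spot can hold several cells or parts of cells. Each group was 1 section of 1 mouse, so no test between groups was possible, and the intervals given are 95% counting intervals that cover neither animals nor sections.

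The section labelled trained had 4152 spots with 29515831 unique molecular identifiers (UMIs, each marking 1 captured molecule), and the section labelled untrained had 3738 spots with 59029131. The median spot held 5950.5 and 13766.5 UMIs, and 194 and 114 spots under 500 UMIs were left out. Both libraries used 3448 of the same spot barcodes, since Visium slides carry a fixed barcode grid. Correlations between genes over hippocampal spots, set against those the study tabulated for its own groups, were nearer in each section to the table of the opposite group. The labels are kept here as deposited, and every value that sets the sections against each other carries this doubt about its direction, while values within a section do not depend on it. In what follows, paired values give the section labelled trained first and the section labelled untrained second. Exons of Kif5b, Klc1, Klc2, Klc3, Kif2a, Kif3c, Kif6, Kif7, Kif22, Kif26b, Kif27 and Kif1bp, and of the rare Kif4, Kif18a and Kif20a, overlap a gene on the opposite strand, so their counts are uncertain should strand not have been used. On the same strand exons of Kif17 overlap Sh2d5, those of Kif28 overlap Ahctf1, and those of Kif1c and Kif27 overlap microRNA genes, so reads there could have been split or left out. Levels are UMIs summed over the spots of a region and scaled to a total of 1000000 UMIs there, written CPM.

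Clustering of the spots without the kinesin genes gave 13 regions that could be named from their markers and held at least 20 spots in each section. The white matter, of 339 and 361 spots, carried 48542 and 38706 CPM of 9 oligodendrocyte markers, the genes from which it was named. In the grey matter, which was every named region other than white matter, choroid plexus and meninges, the same markers made up 4652 and 4647 CPM over 2630 and 2151 spots. No marker of that list was at 0 on either side. The hippocampus was outlined as 544 and 528 spots, of which 416 and 471 lay in the clusters of its cell layers and 128 and 57 in a neuropil cluster named from mRNAs known in dendrites. The cell layers were CA1, the dentate gyrus and cluster 16, an unnamed cluster of 79 and 127 spots led by Cabp7, Klk8 and Homer3, whose score was highest for CA3 markers. Cluster 16 and cluster 9, unnamed and led by Ctxn3, Gbx2 and Cbln1, are not among the 13 named regions, and their levels are given where they passed those. The neuropil spots covered only part of the dendritic strata, and the cell-layer clusters reached past the cell bodies, as the maps show. The same neuropil cluster also took spots outside this outline, 201 and 116 in all, and the levels by region use all of them. Striatum (222 and 30 spots), choroid plexus (67 and 159) and the thalamic reticular nucleus with zona incerta (125 and 38) were cut unequally, so levels in the smaller of each pair rest on few spots.

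Together the kinesin genes gave 66881 and 136705 UMIs, or 2266 and 2316 CPM of the whole section. The 3 heavy chains of kinesin-1 made up 32.4% and 28.2% of these molecules, its light chains 24.1% and 23.7%, and kinesin-3 22.9% and 29.1%. Kinesin-2 followed with 6.09% and 5.72% and kinesin-4 with 5.28% and 4.19%. Of the families named for work in cell division, kinesin-5 had 16 and 123 UMIs and kinesin-6 46 and 61, while kinesin-10, which here is Kif22 alone, had 460 and 1270. Kif2b, a relative of the microtubule depolymerase Kif2a, had 0 UMIs in both sections. A count of 3 UMIs, taken here as what 0 allows, would be 0.102 and 0.0508 CPM. By region, the summed level was 3206 and 2670 CPM in white matter, 2940 and 2789 in the thalamic reticular nucleus and zona incerta, 2230 and 2402 in grey matter as a whole, and 1456 and 1344 in choroid plexus. Summed kinesin mRNA was a larger share of the RNA in white matter than in grey matter in both sections, a sum in which abundant genes weigh most. Kif5a was at 966 against 350 CPM and at 671 against 375, while Klc1 was at 340 against 465 and at 338 against 512.

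**Figure D1:**
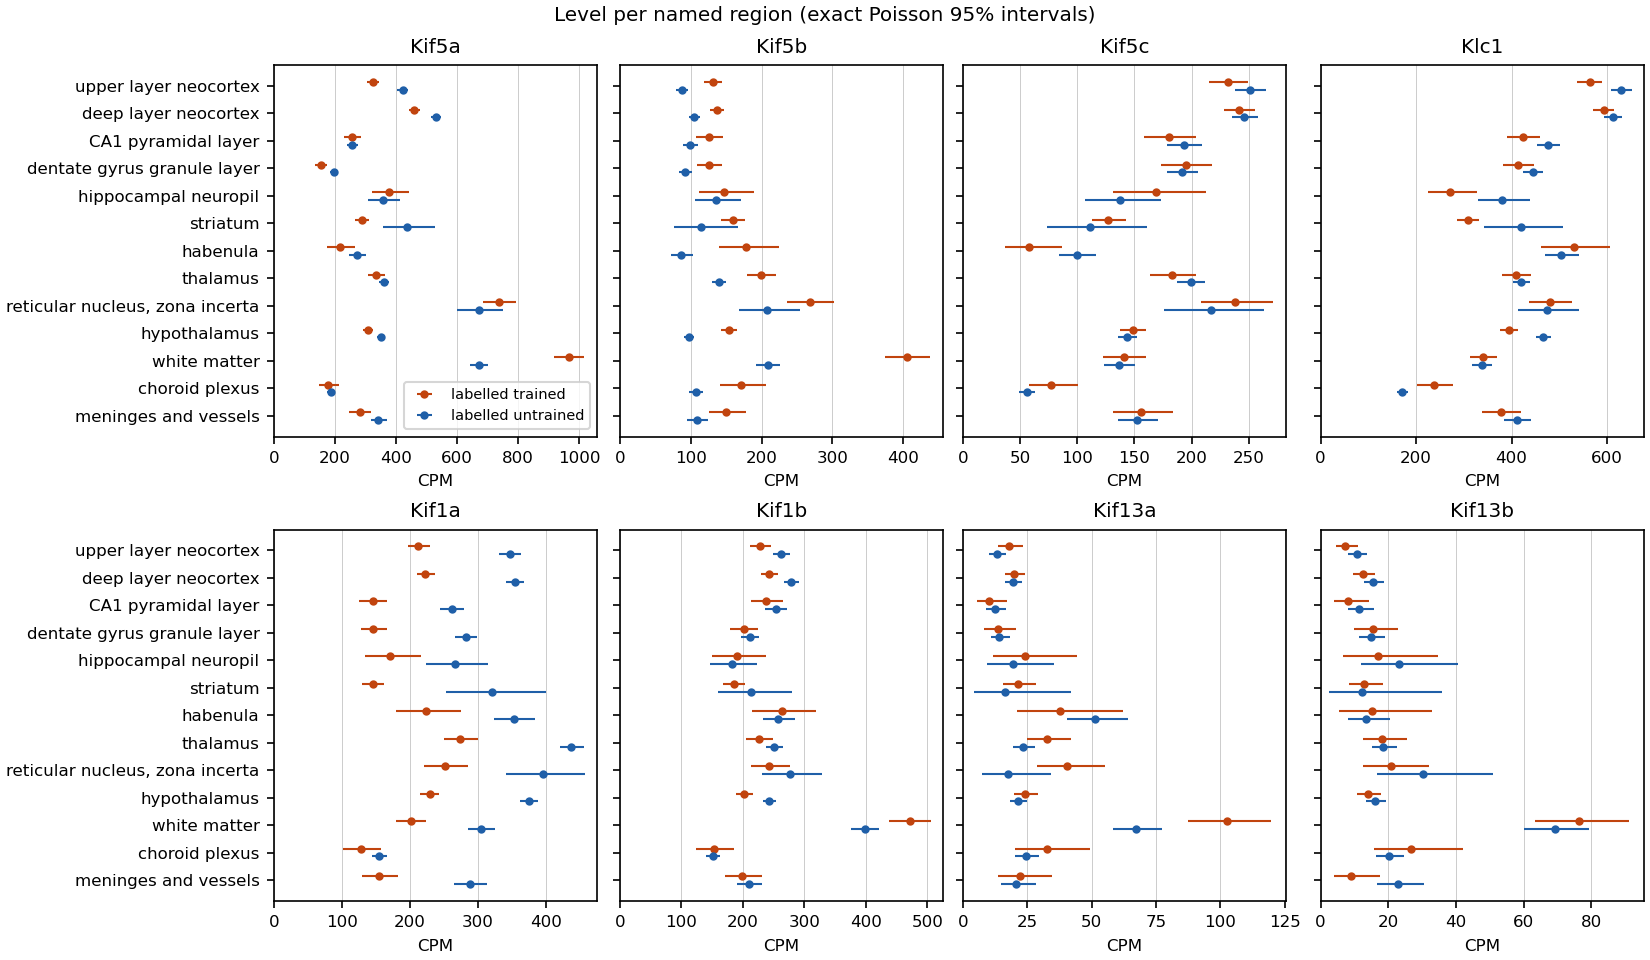
Level in CPM (horizontal axis, from 0, a scale of its own for each gene) of 8 of the genes in the 13 named regions of each section, 1 point per section with its exact Poisson 95% interval. White matter lies to the right of the other regions for Kif13a, Kif13b and Kif1b in both sections, Kif5a is level there and in the reticular nucleus and zona incerta of the section labelled untrained (671 and 673 CPM), and Kif5c and Klc1 lie furthest right in the neocortex.

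The 3 heavy chains of kinesin-1 had different maps although they are close relatives. Kif5a, the heavy chain mostly made in neurons and mutated in hereditary spastic paraplegia, had 11127 and 21417 UMIs and was detected in 3250 of 4152 and 3484 of 3738 spots. Its level was 966 and 671 CPM in white matter and 738 and 673 in the thalamic reticular nucleus and zona incerta, against 153 and 197 in the dentate gyrus. Kif5b, the heavy chain found in most cell types, peaked in white matter at 405 and 209 CPM. Kif5c, also mostly neuronal, had its highest values among the named regions in the neocortex, 242 and 246 CPM in the deep layers and 232 and 251 in the upper layers, with 141 and 136 in white matter and 77.0 and 55.8 in choroid plexus. Cluster 16 had 277 and 249 CPM of Kif5c, above the neocortex in the section labelled trained. Over the 13 regions the level of Kif5c ranked with the summed neuron markers (Spearman's rho 0.81 and 0.95) and that of Kif5b with the oligodendrocyte markers (0.96 and 0.87). Kif5a ranked less with the neuron markers (0.26 and 0.34) than with the astrocyte markers (0.66 and 0.59) or the endothelial markers (0.61 and 0.62). These regions come from 1 library per section and share its depth, so the correlations are descriptions.

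The make-up of the heavy chains differed by region. Of the Kif5a, Kif5b and Kif5c molecules in white matter, Kif5a was 63.9% (exact binomial interval 62.0% to 65.8%) and 66.0% (64.3% to 67.7%), and Kif5c was 9.3% (8.2% to 10.5%) and 13.4% (12.2% to 14.7%). In the dentate gyrus granule layer Kif5a was 32.3% and 40.9% and Kif5c 41.1% and 39.9%. Kif5c thus held a larger share of the heavy chains in granule-layer spots than in white matter in both sections, and Kif5a a smaller one. In the hippocampal cell layers Kif5a and Kif5c were nearly level in the section labelled trained (38.6% and 38.3%), while Kif5a led in the section labelled untrained (45.8% against 37.4%).

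**Figure D2:**
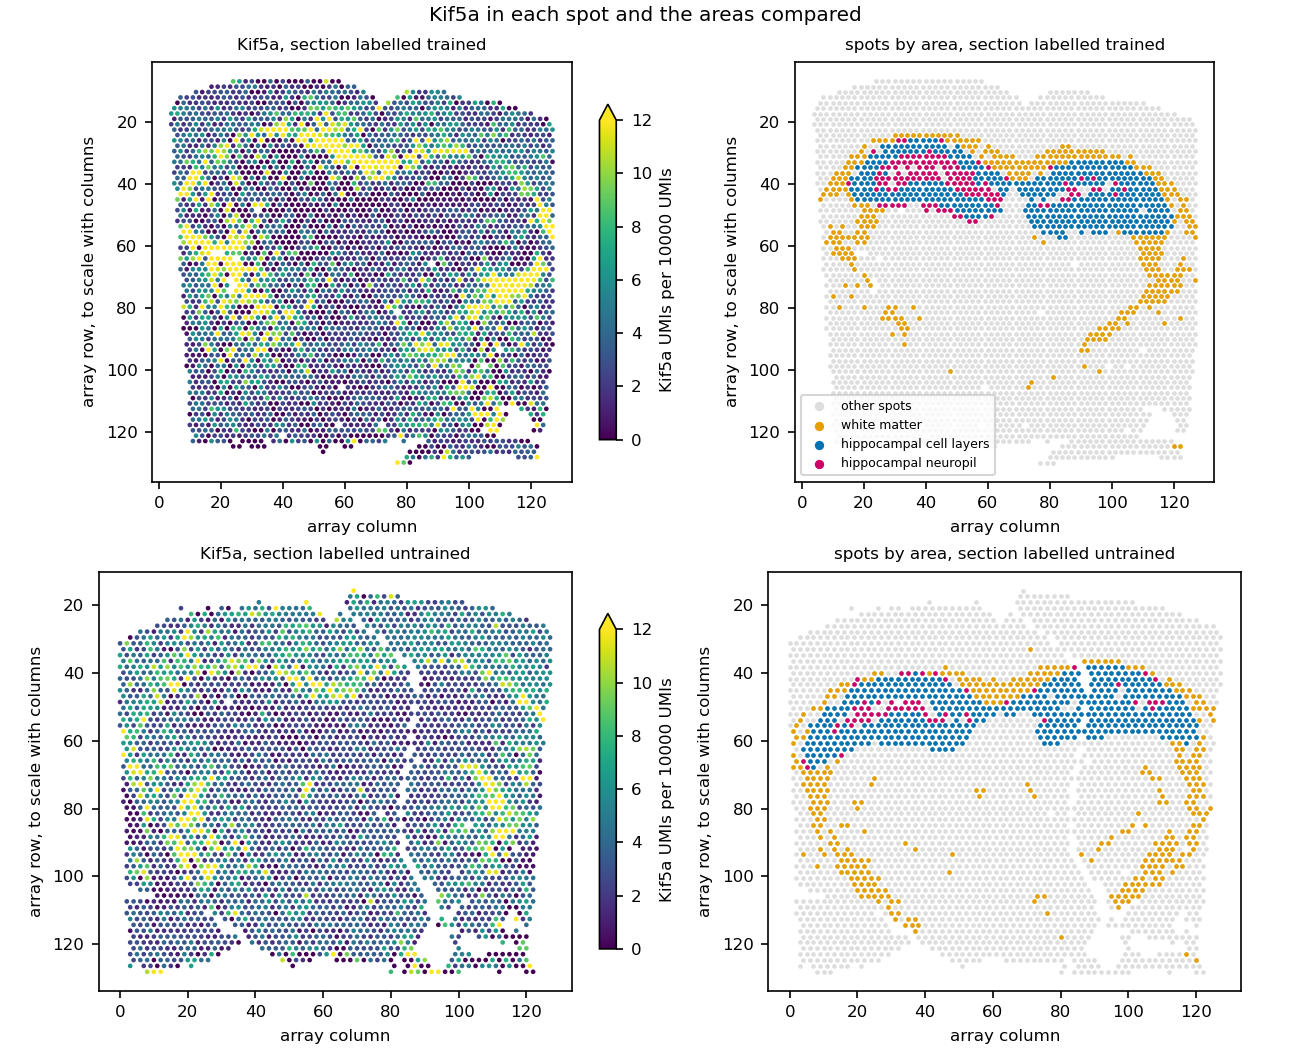
Maps of both sections, each spot drawn at its array column and row. On the left the colour gives the UMIs of Kif5a per 10000 UMIs of the spot, and on the right the spots used as white matter, hippocampal cell layers and hippocampal neuropil. Bands of high Kif5a follow the white matter above and beside the hippocampus, where the level was 966 and 671 CPM, and the hippocampus is dark.

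Of the light chains, Klc1 and Klc2 were highest in the neocortex among the named regions. Klc1, which had the most molecules of any gene of the set, was at 593 and 612 CPM in the deep layers, 564 and 630 in the upper layers and 237 and 171 in choroid plexus. Its level in cluster 16, 638 and 653 CPM, was above all of these in both sections. Klc2, the second neuronal light chain, was highest in the deep layers at 105 and 75.3 CPM and stood at 27.7 and 27.0 in white matter. Over regions both ranked with the neuron markers (rho 0.73 and 0.79 for Klc1, 0.90 and 0.69 for Klc2). Klc4, another light chain, was highest in the habenula of the section labelled trained (47.7 CPM) and in choroid plexus of the other (26.6 CPM), and ranked with the neuron markers at 0.03 and -0.61. Of the 231 pairs of genes in the set, Klc1 and Kif2a ranked regions most alike, by the lower of their correlations in the sections (0.92 and 0.81), followed by Klc1 and Kif21a (0.77 and 0.83).

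Among the other motors the highest named region differed from gene to gene. Kif1a, the carrier of synaptic vesicle precursors, was highest in the thalamus at 274 and 438 CPM and lowest in choroid plexus at 127 and 155. Cluster 9 exceeded the thalamus for Kif1a (303 and 448 CPM) and for Kif3c (110 and 98.1 CPM). Kif1b, which carries mitochondria and synaptic vesicle precursors, was highest in white matter at 471 and 398 CPM. Kif1c was highest in choroid plexus at 44.4 and 88.5 CPM. Kif3c, a partner of Kif3a, was highest in the thalamus at 97.4 and 95.1 CPM, and Kif3b, the usual partner of Kif3a, in the upper neocortex at 38.4 and 34.5. Kif17, which carries a subunit of the NMDA receptor into dendrites, was highest in the striatum of the section labelled trained (28.2 CPM) and in the dentate gyrus of the other (14.4 CPM).

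Kif2a, which shortens microtubules, and Kif21a, which limits their growth, were both highest in the habenula among the named regions, at 116 and 71.4 CPM and at 128 and 121 CPM. For Kif2a cluster 16 was above the habenula in the section labelled untrained (105 and 79.5 CPM). Kif26b, a kinesin-like protein without known motility, had 23.1 and 20.8 CPM in the dentate gyrus granule layer, its highest level in both sections. Of the 22 genes, 14 (63.6%) had the same highest region in both sections, against 48.2% of the 10543 genes compared. For 5 of the 22 it was white matter (Kif13a, Kif13b, Kif1b, Kif21b and Kif5b), while white matter was the shared highest region of 7.73% of all genes. For some the lead was within counting error: Kif5b in the section labelled untrained was at 208.8 CPM in white matter and 207.8 in the reticular nucleus and zona incerta, and Kif21b was at 30.2 against 29.0 there in the section labelled trained and at 32.0 against 30.6 in the upper neocortex of the other. With every spot weighted equally the number with the same highest region was 9, and after thinning each spot to 1000 UMIs it was 5.

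The authors' own measure of spatial structure put Kif5a first in the set. Moran's I, a deposited score of how alike neighbouring spots are, was 0.325 and 0.273 for Kif5a, ranks 181 of 20513 and 477 of 21498 genes. It was 0.151 and 0.197 for Klc1, 0.142 and 0.129 for Kif5b, 0.0991 and 0.179 for Kif5c and 0.0809 and 0.173 for Kif1a. The score was not corrected for depth, and it is given as deposited.

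The comparison of white matter with grey matter asked which motors are prominent in the RNA of tracts, where myelinating oligodendrocytes outnumber neuronal cell bodies. It could be made for 20 genes of the set, and a gene was called when it differed at least 1.5-fold the same way in both sections. Higher in white matter were 6 of the 20, with 10.5% of all 9800 genes compared called higher. Lower were 4 of the 20, with 23.6% of all genes called lower. The median log2 ratio was -0.14 for the set and -0.24 for all genes, and 9 of the 20 lay above and 8 below the median of all genes in both sections. In spots, fewer cells of a type and less RNA per cell cannot be told apart.

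Sequences upstream of the genes are shown for the widest contrasts, the 2 highest and 2 lowest called genes with a window in the RefSeq promoter table (GRCm38.p6), which held 35 of the 44 genes. Each window runs from 250 bases before to 50 bases after a RefSeq start site and is written along the strand of the gene, with capitals on the GC box GGGCGG or its complement CCGCCC. The Kif13a window lies on the minus strand at chr13:46929669-46929968, that of Kif1c on the plus strand at chr11:70700298-70700597, that of Kif17 on the plus strand at chr4:138262001-138262300, inside the gene as GENCODE draws it, and that of Kif22 on the minus strand at chr7:127042371-127042670.
Kif13a: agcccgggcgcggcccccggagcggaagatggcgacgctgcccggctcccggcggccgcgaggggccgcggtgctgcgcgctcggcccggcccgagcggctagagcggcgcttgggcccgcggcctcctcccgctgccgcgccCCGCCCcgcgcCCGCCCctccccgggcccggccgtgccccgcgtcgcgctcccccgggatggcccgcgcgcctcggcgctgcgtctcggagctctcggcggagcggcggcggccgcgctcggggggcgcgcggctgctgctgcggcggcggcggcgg
Kif1c: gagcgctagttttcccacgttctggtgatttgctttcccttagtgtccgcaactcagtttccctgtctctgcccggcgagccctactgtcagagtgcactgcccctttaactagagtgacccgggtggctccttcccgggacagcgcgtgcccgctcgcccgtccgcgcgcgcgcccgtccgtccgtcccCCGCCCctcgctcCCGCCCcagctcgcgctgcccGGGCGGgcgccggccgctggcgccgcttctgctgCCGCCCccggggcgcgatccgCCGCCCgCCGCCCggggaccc
Kif17: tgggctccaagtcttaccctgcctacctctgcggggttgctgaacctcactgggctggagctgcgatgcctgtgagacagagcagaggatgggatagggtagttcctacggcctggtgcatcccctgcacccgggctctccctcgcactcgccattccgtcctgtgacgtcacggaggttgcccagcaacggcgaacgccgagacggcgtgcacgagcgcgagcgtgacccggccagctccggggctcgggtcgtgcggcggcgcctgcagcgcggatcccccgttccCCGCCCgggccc
Kif22: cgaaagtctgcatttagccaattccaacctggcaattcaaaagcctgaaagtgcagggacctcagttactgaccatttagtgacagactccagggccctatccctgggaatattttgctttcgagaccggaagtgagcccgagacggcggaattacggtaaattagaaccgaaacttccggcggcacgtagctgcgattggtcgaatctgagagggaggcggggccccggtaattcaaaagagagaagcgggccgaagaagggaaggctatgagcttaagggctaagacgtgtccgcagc
The windows of Kif13a and Kif1c, higher in white matter, held 2 and 6 GC boxes and 62 and 41 CpG dinucleotides. Those of Kif17 and Kif22, lower in white matter, held 1 and 0 GC boxes and 31 and 19 CpG dinucleotides. On either strand a GC box was found in 35.7% of all 32851 windows of 300 bases, and in 27 of the 39 windows of the set (69.2%). None of the 4 windows held TATAAA, found in 13.6% of all windows, nor AACAAAG or AACAATG, letters that SOX factors can bind, found in 5.85% and 3.78%. A match or its absence describes these letters alone.

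**Figure D3:**
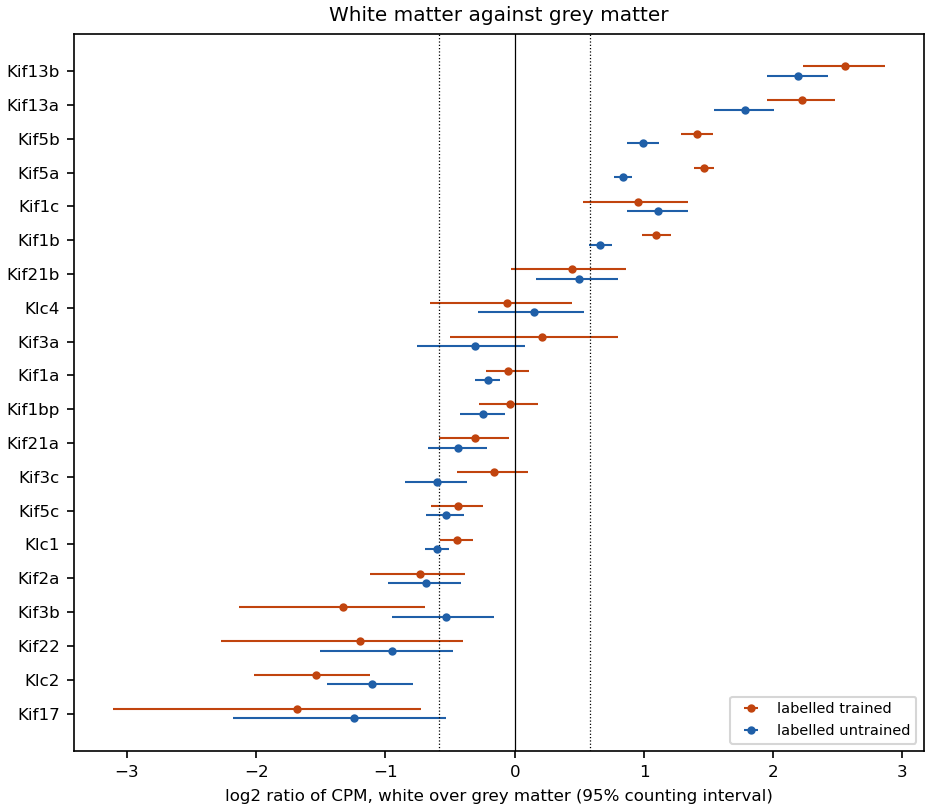
Log2 ratio of CPM in white matter over grey matter for the 20 genes compared, with 95% counting intervals, 1 point per section, and dotted lines at 1.5-fold. Kif13b and Kif13a lie furthest to the right, at 2.56 and 2.19 and at 2.22 and 1.78, and Kif17 and Klc2 furthest to the left.

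Kif13b and Kif13a, kinesin-3 motors of endosomal and membrane cargo, had the highest ratios. Kif13b (chr14:64647265-64809617, 40 exons) was at 76.2 CPM in white matter against 12.99 in grey matter and at 69.1 against 15.2. Its log2 ratio was 2.56 (2.23 to 2.87) and 2.19 (1.95 to 2.42). Kif13a (chr13:46749087-46929867, 38 exons) was at 103 against 22.0 CPM and at 67.1 against 19.6, ratios of 2.22 (1.96 to 2.48) and 1.78 (1.54 to 2.01). White matter was above grey matter on both sides of both sections, with 2.10 to 2.62 for Kif13b and 1.66 to 2.47 for Kif13a.

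By the mean of the sections the heavy chains Kif5b and Kif5a came next. Kif5a (chr10:127225696-127263348, 29 exons) was at 966 against 350 CPM and at 671 against 375, ratios of 1.46 (1.38 to 1.54) and 0.84 (0.77 to 0.91). Kif5b was at 405 against 152 CPM and at 209 against 105, ratios of 1.41 and 0.99. The third heavy chain, Kif5c, lay below 0 with -0.44 and -0.53 and was not called. Of the kinesin-1 heavy chains, the level of Kif5a was thus higher in white matter although it is known from neurons, and the summed neuron markers there were 1741 and 1861 CPM against 5513 and 4651 in grey matter. What cells held this Kif5a mRNA was not tested.

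Kif1b, whose loss in zebrafish disturbs the placing of myelin mRNA in oligodendrocytes, was at 471 against 221 CPM and at 398 against 252, log2 ratios of 1.10 and 0.66. Kif1c, a motor of dense-core vesicles, was at 37.2 against 19.3 CPM and at 60.4 against 28.0, ratios of 0.95 and 1.11. On the left of the section labelled trained the ratio of Kif1c was 0.58, under the threshold. Kif1a, a relative of Kif1b and Kif1c, did not follow: its log2 ratios were -0.05 and -0.21. Of the 5 kinesin-3 genes compared, 4 were called higher in white matter, all but Kif1a, beside 10.5% of all genes, a grouping made with the calls known.

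The 4 genes called lower were Klc2, Kif17, Kif22 and Kif2a. Klc2 was at 27.7 against 81.2 CPM and at 27.0 against 58.2, log2 ratios of -1.53 and -1.10. Kif17 was at 4.41 against 15.2 CPM and at 4.72 against 11.6, ratios of -1.69 (-3.11 to -0.72) and -1.25 (-2.18 to -0.53), from 7 and 14 UMIs in white matter. After thinning to 1000 UMIs the ratio of Kif17 in the section labelled untrained turned to 0.60.

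Kif22, a chromosome-binding kinesin, was at 6.93 against 16.6 and at 11.5 against 22.5 CPM, ratios of -1.20 and -0.95. Kif2a was at 41.0 against 68.4 and at 37.4 against 60.4 CPM, ratios of -0.73 and -0.68. Each fell under the threshold on a single side. Kif22 was at -0.54 on the right of the section labelled untrained, and Kif2a at -0.46 on the left of the section labelled trained. Klc1 was not called, at -0.45 and -0.60, nor was Kif3c at -0.16 and -0.60. Kif3b was past the threshold in the section labelled trained alone (-1.33 and -0.53). The log2 ratios of Kif3a were 0.21 and -0.31, of Kif21a -0.30 and -0.44, and of Kif21b 0.44 and 0.49.

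The genes that work with kinesins were given as lists chosen with earlier results of these data known. Of 24 cargo adaptors and regulators compared, 5 were higher in white matter (Fez1, Map7, Map7d1, Mapk8ip1 and Trak2) and 10 lower, beside 10.5% and 23.6% of all genes, with a median log2 ratio of -0.58. Map7, which recruits kinesin-1 to microtubules, had ratios of 1.93 and 1.66, and Hap1, an adaptor that binds huntingtin, had -2.59 and -1.47. Of 26 dynein and dynactin genes 2 were higher and 6 lower, near the shares of all genes, with Nde1, a regulator of dynein, at 2.33 and 1.92. Of 20 genes of microtubule proteins 4 were higher and 11 lower. Tubb4a, a tubulin known from oligodendrocytes, had 2.04 and 1.92, and Stmn2, a neuronal regulator of microtubules, had -1.58 and -1.22. Of 3 kinesin genes compared that the symbol rule leaves out, 2 were lower, Kifap3, which joins Kif3a and Kif3b to cargo, and Kifc2, and Kifc3 was not called.

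The comparison of hippocampal neuropil with cell layers asked which motor mRNAs lie among dendrites rather than at cell bodies. It held 11 genes of the set, of which 0 were higher (3.46% of all 3754 genes compared) and 4 lower (31.4% of all genes). The median log2 ratio was -0.62 for the set and -0.58 for all genes. Mitochondrially encoded RNA was 30.1% and 29.5% of UMIs in neuropil spots against 9.98% and 15.5% in cell layers. Leaving it out of the total moved the median of all genes from -0.66 to -0.30 and from -0.46 to -0.20, so ratios are also given relative to the median of all genes. Neuropil spots were shallower, with medians of 2020.5 and 6296 UMIs against 7445.5 and 18609. Most of them lay on the left, 111 and 45 spots against 17 and 12 on the right, so the pooled ratios mix side with layer.

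**Figure D4:**
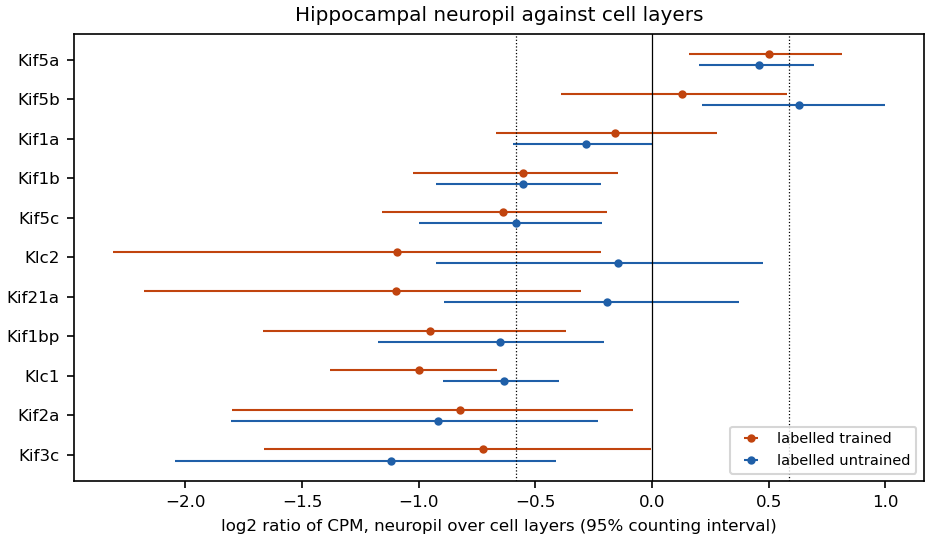
Log2 ratio of CPM in hippocampal neuropil spots over cell-layer spots for the 11 genes compared, with 95% counting intervals, 1 point per section, and dotted lines at 1.5-fold. Kif5a is the topmost gene at 0.50 and 0.46, and Klc1, Kif2a, Kif3c and Kif1bp lie past the left line in both sections.

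Kif5a had the highest mean ratio of the set. It was at 300 CPM in neuropil against 213 in cell layers and at 350 against 256, from 87 and 144 UMIs in neuropil. The log2 ratio was 0.50 (0.16 to 0.81) and 0.46 (0.20 to 0.69), under the threshold, and 1.16 and 0.91 above the median of all genes. Without mitochondrially encoded RNA in the total it was 0.87 and 0.72 and was called higher, the 1 such gene of the set compared. Leaving that RNA out raised the median of all genes by 0.36 and 0.26. The share of all genes called higher in that setting is not given here. With the full total the ratio of Kif5a was -0.21 on the right of the section labelled trained, from 17 spots. It was 0.42 or 0.43 on the other sides.

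Kif5a made up 52.4% (44.5% to 60.2%) and 55.4% (49.1% to 61.5%) of heavy-chain molecules in neuropil against 38.6% and 45.8% in cell layers. Kif5c made up 23.5% (17.3% to 30.7%) and 21.9% (17.05% to 27.5%) against 38.3% and 37.4%. In shares among heavy chains, which do not depend on the total, Kif5a was thus higher and Kif5c lower in neuropil in both sections. Kif5b was at 138 against 127 CPM and at 144 against 93.5, log2 ratios of 0.13 and 0.63. Kif1a, whose mRNA was at 141 against 159 CPM and at 241 against 295, had -0.16 and -0.28, and like Kif5a and Kif5b lay above the median of all genes in both sections.

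The 4 genes called lower in neuropil were Klc1, Kif1bp, Kif3c and Kif2a. Klc1 was at 237 against 478 CPM and at 333 against 520, log2 ratios of -1.0 (-1.38 to -0.66) and -0.64 (-0.90 to -0.40). Kif1bp was at 75.7 against 149.7 CPM and at 92.5 against 147, ratios of -0.95 and -0.65. These had the most molecules of the 4.

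Kif3c was at 48.2 against 82.4 CPM and at 34.1 against 76.5, ratios of -0.73 and -1.12 from 14 and 14 UMIs, but 0.22 on the right side of the section labelled trained. Kif2a was at 44.8 against 82.2 CPM and at 36.5 against 71.1, ratios of -0.82 and -0.92. On the right of the section labelled untrained, from 12 spots, Klc1 was at -0.27 and Kif2a at -0.12. Kif1bp was at -0.48 on the left of that section, and Kif2a at -0.53 on the left of the section labelled trained. All 4 also lay below the median of all genes in both sections. Leaving mitochondrially encoded RNA out raised the median of all genes by 0.36 and 0.26. None of the 4 then stayed past the threshold in both sections. Kif5c (-0.64 and -0.58), Kif1b (-0.56 and -0.55), Kif21a (-1.10 and -0.19) and Klc2 (-1.09 and -0.15) were not called. Genes under the minimum of 200 UMIs were not compared, and some had ratios above that of Kif5a. Kif13b had 0.79 and 1.35 from 5 and 12 UMIs in neuropil, and Kif13a 0.60 and 0.89 from 5 and 9. Kif1c had 0.82 and 0.47 from 12 and 16 UMIs, and Kif3b went the other way with -1.03 and -0.61 from 4 and 8.

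Glial markers were higher in these neuropil spots: 8 astrocyte markers summed to 5312 and 4071 CPM against 1922 and 1957, and 9 oligodendrocyte markers to 4251 and 7478 against 1707 and 2308. The 11 neuron markers were lower, 2293 and 2609 against 5492 and 4953, and 9 mRNAs known in dendrites were higher, 3993 and 3095 against 2653 and 2877, though some of the latter had named the cluster. None of the genes in these 4 lists was at 0. The part of glial RNA in the ratios of Kif5a and Kif5b was not tested. Of the partner lists, 8 of 19 adaptors, 7 of 20 dynein genes and 5 of 19 microtubule genes were lower in neuropil and 0 higher, beside 31.4% and 3.46% of all genes. Map2, a microtubule protein of dendrites, was highest among the microtubule genes with a mean ratio of 0.26.

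Among the 22 rare genes the highest regional levels were in choroid plexus. There Kif9, a motor of beating cilia, had 14 and 156 UMIs (20.7 and 32.9 CPM). Klc3, a light chain known from sperm, had 10 and 123 UMIs (14.8 and 26.0 CPM), Kif27, a gene of motile cilia, 10 and 43, Kif19a, which trims the microtubules of cilia, 6 and 45, and Kif6, known from ependymal cilia, 4 and 33. In the section labelled untrained all 5 were highest in choroid plexus, and in the section labelled trained Kif9 and Kif27 were, while Klc3 and Kif6 were higher in the habenula and Kif19a in the neuropil cluster, from 3 to 6 UMIs. Choroid plexus spots also carried the most ependymal markers, 1283 and 1203 CPM of 6 genes, with the habenula next at 397 and 450. The levels in choroid plexus and ependyma cannot be told apart in these spots. Kif11, the spindle motor, had 16 and 123 UMIs in all, of which 3 and 45 lay in the thalamus, while 6 markers of dividing cells reached at most 27 CPM in any region. Kif7 had 3 and 8 UMIs in the habenula and Kif26a 4 and 4, each highest there in the section labelled trained and elsewhere in the other. The remaining 13 genes (Kif2c, Kif4, Kif12, Kif14, Kif15, Kif16bos, Kif18a, Kif18b, Kif20a, Kif20b, Kif23, Kif24 and Kif28), most of them motors of cell division, had between 2 and 20 UMIs in the section labelled trained and between 2 and 35 in the other, too few for any statement on place.

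The comparison of the sections themselves asked which motors differ between an animal that had learned the task and a control. Over all spots 1 of 22 genes was higher in the section labelled trained (8.5% of all 10543 genes) and 3 were lower (3.23% of all genes). The median log2 ratio was 0.04 for the set and 0.09 for all genes. A difference between animals, sections, libraries, depths and regions cut cannot be told apart from one between groups here.

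**Figure D5:**
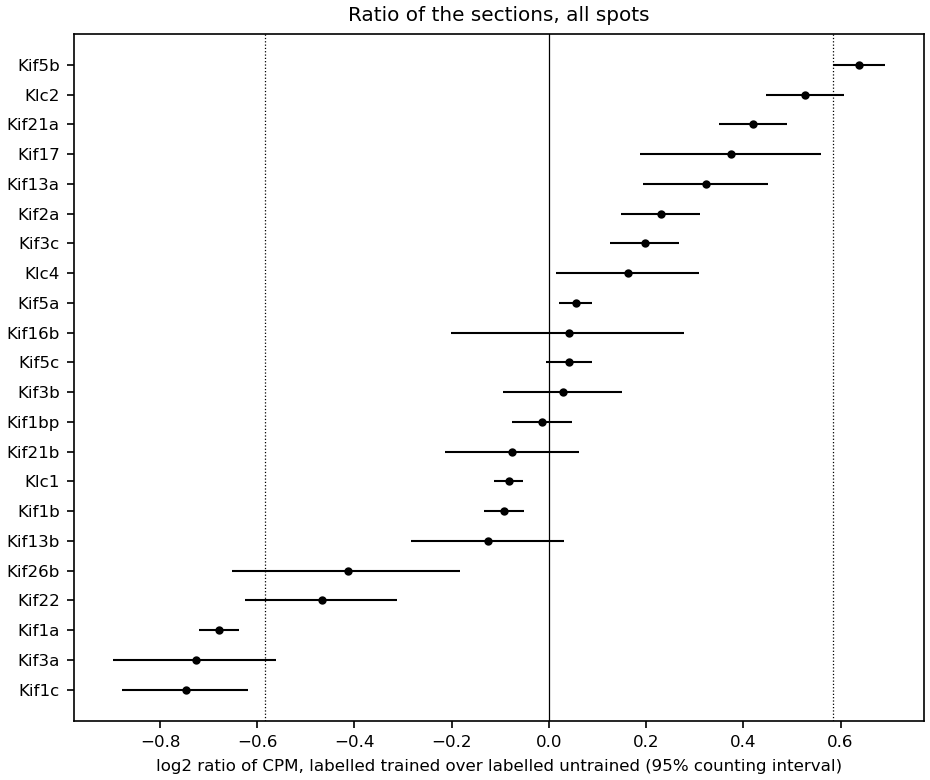
Log2 ratio of CPM between the sections, label trained over label untrained, for the 22 genes over all spots, with 95% counting intervals and dotted lines at 1.5-fold. Kif5b lies past the right line at 0.64 and Kif1a, Kif3a and Kif1c past the left line at -0.68, -0.73 and -0.75.

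Kif5b was the gene called higher, at 172 CPM in the section labelled trained and 111 in the other, a log2 ratio of 0.64 (0.59 to 0.69). It was above 0 in 15 of 15 regions where it had at least 50 UMIs in each section, from 0.12 to 1.04. By region the median of all genes ran from -0.02 in the striatum to 0.18 in CA1, and the regions are parts of the same libraries. The call was lost on the left side (0.58), without mitochondrially encoded RNA in the total (0.57) and with the median of ratios in place of the total (0.55). The next highest were Klc2 (73.9 and 51.3 CPM, 0.53), Kif21a (94.8 and 70.9, 0.42), Kif17 (13.4 and 10.3, 0.38) and Kif13a (27.3 and 21.8, 0.32), none of them called.

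Kif1a was lower, at 212 against 339 CPM, a log2 ratio of -0.68 (-0.72 to -0.64). It lay below 0 in 16 of 16 regions, from -1.15 to -0.28. Kif3a was at 12.95 against 21.5 CPM (-0.73). Kif1c was at 21.5 against 36.2 CPM, -0.75 (-0.88 to -0.62), but on the right side alone its ratio was -0.42. Kif22 (-0.47) and Kif26b (-0.41) followed.

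Of the other motors named here none was past the threshold over all spots. Kif5a was at 377 and 363 CPM, a log2 ratio of 0.05, Kif5c at 184 and 179 (0.04), Klc1 at 450 and 476 (-0.08) and Kif1b at 235 and 251 (-0.09). Kif3b was at 28.2 and 27.7 CPM (0.03), Kif3c at 83.6 and 73.0 (0.20), Kif2a at 66.1 and 56.4 (0.23) and Kif21b at 21.5 and 22.7 (-0.08). By region the ratio of Kif5a ran from -0.60 to 0.53 and that of Klc1 from -0.48 to 0.47, each below 0 in 12 of 16 regions. No test bears on whether these pairs are equal.

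In the hippocampus 11 genes of the set could be compared. None was higher (11% of all 3754 genes) and 1 was lower (2.74% of all genes), with a median log2 ratio of -0.00 for the set and 0.13 for all genes. The 1 gene was again Kif1a, at 158 against 293 CPM and a ratio of -0.89 (-1.01 to -0.77). The highest were Kif5b at 128 against 95.4 CPM (0.43), Klc2 (0.36), Kif21a (0.33), Kif2a (0.19) and Kif3c (0.10). Below Kif1bp (-0.00) came Kif1b (-0.08), Klc1 (-0.15) and Kif5a at 219 against 260 CPM (-0.25), while Kif5c stood at -0.00.

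Arc is an immediate early gene switched on by neuronal activity, and spots of the CA1 cell layer with at least 1 UMI of Arc were set against those with none. There were 102 and 74 such spots in the section labelled trained and 154 and 35 in the section labelled untrained. Of 5 genes of the set with enough molecules, 1 was higher in Arc-positive spots in both sections (5.94% of all 1195 genes) and 0 lower (2.09% of all genes), with medians of 0.14 for the set and 0.24 for all. Kif1bp, the kinesin-binding protein, was at 170 against 101 CPM and at 144 against 82.9, log2 ratios of 0.73 (0.22 to 1.30) and 0.77 (0.22 to 1.43). Klc1 had 0.42 and 0.32, Kif5a -0.34 and -0.03, Kif5c -0.02 and 0.29, and Kif1b 0.13 and -0.00. Arc-positive spots were deeper, with medians of 7589 against 3819 and 15358.5 against 8684 UMIs, and held less mitochondrially encoded RNA, 9.70% against 16.5% and 16.5% against 26.9%. Astrocyte markers were at 1657 against 2791 CPM and at 1826 against 3297, oligodendrocyte markers at 1814 against 2408 and at 2053 against 4289, and neuron markers at 4515 against 3927 and at 4141 against 3301. Without mitochondrially encoded RNA in the total the ratios of Kif1bp were 0.61 and 0.58, and the second was no longer past the threshold, nor was it with equal weights (0.49) or at resolution 2.0 (0.53). With each spot thinned to 1000 UMIs the ratios were 1.18 and 0.82. Arc was then read from the thinned counts, so the spots set against each other were not the same ones. The part of other cell types in the ratios of Kif1bp was not tested.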

How the data were processed

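The authors counted UMIs per gene and spot with Space Ranger 2.0.0 against mm10, and these deposited counts of the 2 sections were the values used. The score Moran's I was computed by the authors and is given as deposited. Their p-values, signal columns, images and scale factors were not used here, and reads were not analysed here. Gene positions came from GENCODE vM21 on the same build. Members, lists and comparisons were chosen with earlier results of these data known.

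Spots under 500 UMIs were left out. The 3000 genes that varied most were taken in each section and intersected, and the kinesin genes, partner lists, immediate early, mitochondrially encoded, ribosomal protein and haemoglobin genes were removed, which left 942. Counts were scaled to 10000, logged, standardised within each section, reduced to 30 principal components and clustered over 15 neighbours with the Leiden method (resolution 1.5, seed 7) into 19 clusters. A cluster was named from the marker list with the highest mean z score when that score was above 1. At least 1 marker of the list had to be among the 10 leading genes of at least 50 CPM. No other list could have more markers among these leading genes, a condition that left clusters 9 and 16 unnamed. The hippocampal outline joined spots with at least 2 hippocampal neighbours into patches of at least 30 spots of which a share of at least 0.2 lay in cell layers, a last rule set after the maps were seen.

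Counts were summed per region and scaled to CPM. Genes needed 200 UMIs in each section over the spots compared, ratios used a pseudocount of 0.5 UMI, and called meant at least 1.5-fold. Intervals were exact Poisson, Clopper-Pearson or exact conditional binomial at 95%, and cover counting error only. Named with values were the common motors Kif5a, Kif5b, Kif5c, Klc1, Klc2, Kif1a, Kif1b, Kif3a, Kif3b, Kif3c, Kif17, Kif21a, Kif21b and Kif2a, every gene called in both sections, the 5 highest and 5 lowest between sections, and the rare genes with the highest regional levels. The ratio code was tested on simulated data. Clustering used scanpy 1.11.5 with anndata 0.12.19 and igraph 0.11.9, tables pandas 2.3.3, intervals scipy 1.17.1, arrays numpy 2.4.6, components scikit-learn 1.9.0 and drawings matplotlib 3.10.9, all under Python 3.11.15. Alternatives changed the total, the weight and depth of spots, the minimum, the fold, the clustering, the side, the grey matter and the outline.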

Additional observations from a re-analysis of the deposited data

How the results depend on the processing

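No paired analysis was possible because each group was 1 section and the groups shared no more than 1 replicate number. Of the counts of called genes and of genes with the same highest region, 99 values under alternatives stayed within 1.5 times of those reported and 35 did not. The share of all genes called under each alternative is not given here. Between whole sections 1 gene was higher as reported, and it was 0 without mitochondrially encoded RNA in the total, with the median of ratios, on the left side alone and at 2-fold, 3 with spots thinned to 1000 UMIs and 5 at the looser fold tried, while the 3 lower became 5 at the looser fold and 0 at 2-fold. In the hippocampus the 0 higher became 3 at the looser fold, and the 1 lower became 2 after thinning and 0 at 2-fold. For white matter the 6 higher became 2 at 2-fold, and the 4 lower became 7 at the looser fold and 2 at 2-fold, after thinning, with a minimum of 400 UMIs, at resolution 1.0 and on the left side. For neuropil the 0 higher became 1 without mitochondrially encoded RNA and 1 at the looser fold, and the 4 lower became 0 without that RNA and at 2-fold, 2 with equal weights, with a minimum of 400 UMIs, on the left side and in the deeper spots alone, and 1 on the right side. At resolution 1.0 no neuropil cluster could be named, so it gave no value. The 14 genes with the same highest region became 9 with equal weights and 5 after thinning. For Arc the 1 higher became 2 with a minimum of 100 UMIs and 0 without mitochondrially encoded RNA, with equal weights, with a minimum of 400 UMIs, at 2-fold and at resolution 2.0. Among the ratios of single genes 695 values under alternatives stayed within the counting interval of the value reported, 127 left it, and 3 that were past 1.5-fold in their section changed sign: Kif17 in white matter of the section labelled untrained was 0.60 after thinning, and in neuropil of the section labelled trained Kif21a was 0.0158 and Kif3c 0.22 on the right side. The outline with patches lacking cell layers kept and the sets of regions compared were alternatives chosen after seeing the data. The causes of these changes were not tested. Depth limited the ratios of Klc2, Kif21a, Kif2a and Kif3c in neuropil of the section labelled trained, from 9 to 14 UMIs, and of Kif17 in white matter, from 7 and 14 UMIs.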
